A study of Mus musculus with 4 samples.

Results

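The interleukin-1 (IL-1) family is described here through 8 of the 50766 genes in the count matrices: the antagonist Il1rn, the ligands Il1a, Il1b, Il18 and Il33, and the receptor chains Il1r1, Il1rap and Il1rl1. The 8 genes were chosen by name with measured values of these libraries known, the change of Il1rn after bile duct ligation among them, so their levels and fold changes are given as a description and carry no test. Another 59 genes of the pathway, grouped into 4 lists, carry p-values from a fit over all genes; the lists too were drawn up with earlier results of these data known, so their counts are not independent evidence of a direction. IL-1α (Il1a) and IL-1β (Il1b) bind the type 1 receptor (Il1r1), which then takes up the accessory protein encoded by Il1rap and signals through MyD88 and the IRAK kinases to NF-κB. The IL-1 receptor antagonist, the product of Il1rn, occupies the same receptor without engaging the accessory protein and so blocks both ligands. IL-33 acts through its own receptor (Il1rl1) with the same accessory protein, while IL-18 has receptor chains of its own.

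The cells came from mouse liver and were labelled biliary epithelial cells (BECs), which line the bile ducts. All 4 libraries carried the genotype Sox9EGFP, a transgene that reports Sox9, a gene of duct cells, with green fluorescent protein. In 2 libraries the cells were taken 7 days after sham surgery, and in 2 libraries 7 days after bile duct ligation (BDL), in which the bile duct is tied off and bile backs up into the liver. Age, sex and strain were not given in the sources used here, nor was it stated that each library is 1 mouse, so p-values measure the spread between these libraries. The libraries held 2089 to 4065 cells and 10024577 to 33809650 unique molecular identifiers (UMIs, each standing for 1 captured transcript). The median cell had 2612.5 to 3258 UMIs in the sham libraries and 7058 to 7794.5 in the BDL libraries. Levels are UMI counts scaled to the total of the same cells (counts per 1000000, CPM), which sets out this difference in depth.

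The group names inside the deposited cell tables go against the sample labels in 2 libraries: sham replicate 2 is called BDL there, and BDL replicate 2 is called sham. In sham replicate 1 and BDL replicate 1 both sources give the same group. Libraries were grouped by their sample labels, every value is given per library, and the main results are also given from sham replicate 1 and BDL replicate 1 alone (the replicate 1 libraries). The numbers only name libraries and pair none. No cell barcode was shared between libraries. BEC-like cells, named from 11 biliary markers such as Krt19, Krt7 and Epcam, made up 91.2% and 81.4% of cells in sham and 94.3% and 93.6% in BDL, and the summed level of the 11 markers was 9980 to 11000 CPM in them. Markers of other cells differed between the groups in BEC-like cells. Summed mesenchymal markers stood at 105 and 103 CPM in sham and 16.8 and 31.2 CPM in BDL. The hepatocyte markers Alb and Ttr were raised only in BEC-like clusters that were mostly of sham cells. The part of RNA from other cells in BEC-like values was not tested. The remaining cells were mostly mesenchymal-like (188, 417, 71 and 132 cells in sham replicates 1 and 2 and BDL replicates 1 and 2). Endothelial-like cells (19 to 122 a library), macrophage-like cells (12 to 50) and hepatocyte-like cells (2 to 34) were fewer, and 27 cells led by Rgs13 and St18 (0.35%, 0.157%, 0.144% and 0.222% of the libraries in the same order) stayed unnamed.

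The sequence before the start sites of Il1rn, Il1a and Il1b is shown because the antagonist and both ligands of the same receptor lie on the same chromosome and had very different levels. The windows are the 250 bases before a start annotated by RefSeq in GRCm38.p6, an older assembly than the GRCm39 named in the submitters' processing notes. Il1rn has 3 such starts, here called distal, middle and proximal. The distal window is chr2:24336610-24336859 and the middle window chr2:24345041-24345290, both on the plus strand. The Il1a window is chr2:129309973-129310222 and the Il1b window chr2:129371140-129371389, both on the minus strand. Capitals mark matches, on either strand, to the AP-1 motif TGANTCA, the C/EBP motif TTNNGNAAT or the NF-κB consensus.
Il1rn, distal start: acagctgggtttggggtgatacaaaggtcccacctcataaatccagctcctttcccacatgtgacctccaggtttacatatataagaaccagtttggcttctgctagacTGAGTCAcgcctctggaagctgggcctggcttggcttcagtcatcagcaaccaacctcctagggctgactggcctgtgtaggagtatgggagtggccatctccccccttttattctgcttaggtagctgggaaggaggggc
Il1rn, middle start: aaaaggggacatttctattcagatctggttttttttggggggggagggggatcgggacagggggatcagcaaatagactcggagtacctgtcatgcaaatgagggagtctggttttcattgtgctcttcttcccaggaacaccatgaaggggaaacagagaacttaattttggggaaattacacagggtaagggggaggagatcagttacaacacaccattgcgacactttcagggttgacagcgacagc
Il1a: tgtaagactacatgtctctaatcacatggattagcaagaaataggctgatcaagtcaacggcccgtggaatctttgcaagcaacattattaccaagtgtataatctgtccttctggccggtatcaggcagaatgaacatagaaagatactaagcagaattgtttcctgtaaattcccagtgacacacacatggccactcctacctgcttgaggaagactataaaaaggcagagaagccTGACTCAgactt
Il1b: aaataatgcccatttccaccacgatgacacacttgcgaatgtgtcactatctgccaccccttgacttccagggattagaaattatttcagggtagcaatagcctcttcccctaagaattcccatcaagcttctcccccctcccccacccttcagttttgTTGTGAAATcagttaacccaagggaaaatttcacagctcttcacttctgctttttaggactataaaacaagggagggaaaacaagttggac
The distal Il1rn window held an AP-1 match 141 to 135 bases before the start and the middle window held no match. The Il1a window held an AP-1 match 12 to 6 bases before the start, close to the start itself. The Il1b window held a C/EBP match 91 to 83 bases before the start, and the proximal Il1rn window, not printed because it overlaps the middle start, held one 64 to 56 bases before it. Of all 32817 annotated windows of this length, 6.75% held the AP-1 motif, 10.2% the C/EBP motif and 7.25% the NF-κB consensus. A match only says that the letters are there, and gene counts do not tell which start a transcript came from.

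Il1rn had the largest fold difference between the groups among the 6 members that could be fitted in BEC-like cells. Its level was 45 CPM in sham replicate 1, 38.1 CPM in sham replicate 2, 730 CPM in BDL replicate 1 and 974 CPM in BDL replicate 2, from 438, 320, 10662 and 31087 UMIs. The 2 sham libraries lay close together and both BDL libraries lay far above them. The means were 41.5 ± 4.93 CPM in sham and 852 ± 173 CPM in BDL (SD, n = 2 each), a 20.5-fold difference, and the fit over all genes put the log2 difference at 4.38 with a standard error (SE) of 0.18. From sham replicate 1 and BDL replicate 1 alone it was 4.02. By the names in the cell tables, sham would hold 45 and 974 CPM and BDL 38.1 and 730 CPM.

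The higher level of Il1rn was spread over most BEC-like cells and did not come from a few. At least 1 Il1rn UMI was found in 8.78% and 7.72% of BEC-like cells in the sham libraries and in 80.9% and 88.0% in the BDL libraries. The median BEC-like cell held 0 Il1rn UMIs in both sham libraries, 3 in BDL replicate 1 and 6 in BDL replicate 2. Since cells of the BDL libraries were sampled more deeply (median 7131 and 7878 UMIs, against 3302 and 2765), each cell was also thinned to 1000 UMIs, which left out 77 and 106 shallower sham cells and no BDL cell. After thinning, 3.59% and 2.54% of the sham cells and 41.0% and 51.1% of the BDL cells held an Il1rn UMI. Endothelial-like cells served as a background and had 1 or 2 Il1rn UMIs in each library, in 2.50%, 0.820%, 5.26% and 5.88% of cells at median depths of 1208.5, 955, 1734 and 2987 UMIs. After thinning the background was 0% in 3 libraries and 5.56% (1 cell) in BDL replicate 1. The BDL shares lay far above this background. The sham shares cannot be told from this endothelial-like background. Its thinned 0% in the sham libraries, from 24 and 58 cells, has upper limits of 14.2% and 6.16% (exact 95% Clopper-Pearson). The endothelial-like cells were also shallower as sampled. Sham mesenchymal-like cells, at median depths of 3243 and 2300 UMIs, had an Il1rn UMI in 2.13% (0.583% to 5.36%) and 1.68% (0.678% to 3.43%) of cells. The sham BEC-like shares as sampled (7.72% to 9.93% and 6.73% to 8.82%) lay above these intervals. After thinning the intervals overlapped. Mesenchymal-like cells then stood at 0.549% (0.0139% to 3.02%) and 0.806% (0.167% to 2.34%), and BEC-like cells at 2.9% to 4.39% and 1.96% to 3.23%.

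**Figure D1:**
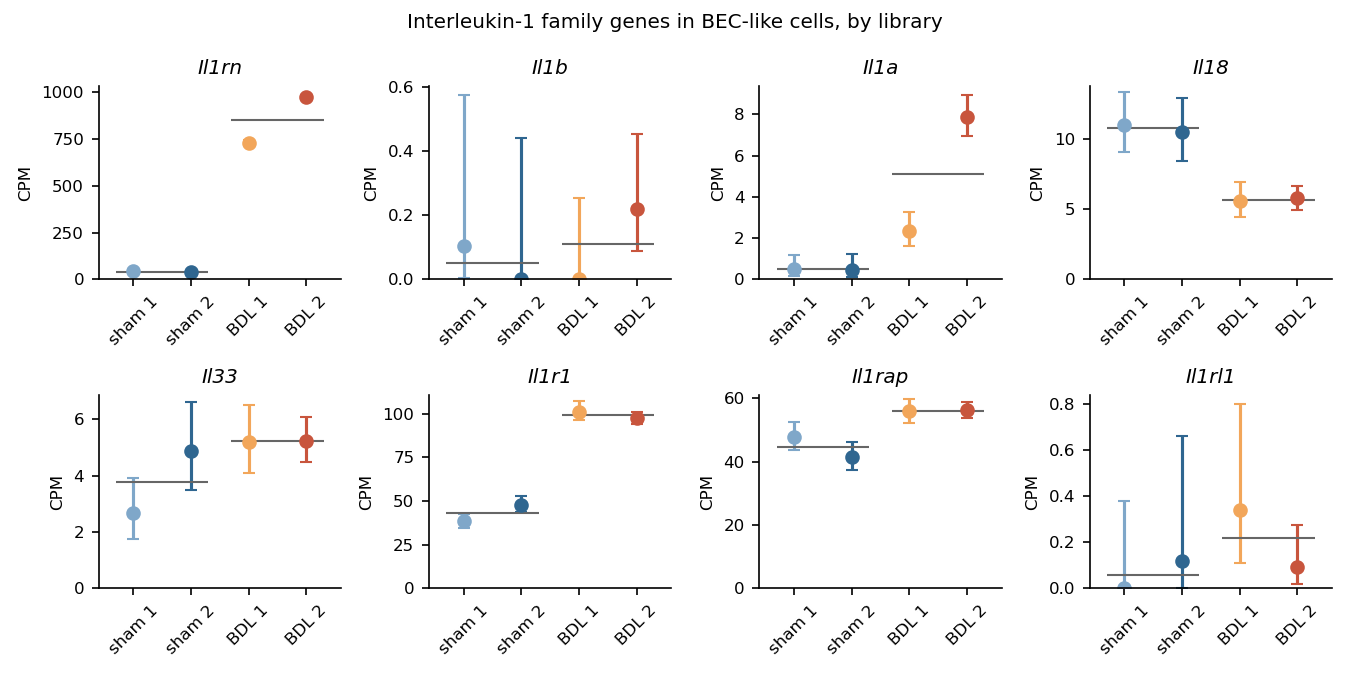
Level of the 8 genes in BEC-like cells in CPM, 1 point for each library with its exact 95% Poisson interval (counting error only), and the mean of the 2 libraries of each group as a grey line. Il1rn, Il1a and Il1r1 were higher in both BDL libraries and Il18 was lower, while Il1b and Il1rl1 stayed at or under 0.342 CPM in every library.

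Sham and BDL cells lay almost wholly apart in the clustering: of 10 BEC-like clusters, 4 were mostly of sham cells and 6 of BDL cells, with 97.3% to 99.7% of cells from one group by the sample labels. The largest held 1038 and 835 cells of sham replicates 1 and 2 and 3 and 4 cells of BDL replicates 1 and 2. By the names in the cell tables, the libraries that shared clusters in this way would be of different groups. Because the groups lay apart, BEC-like cells were clustered again with genes that differed between the groups left out, to get subclusters that both groups filled. Whether the sham and BDL cells of such a subcluster are the same kind of cell was not tested. Il1rn levels of both BDL libraries lay above those of both sham libraries in each such subcluster that both groups filled. The 6 subclusters were made without the 8 genes, and 6567 further genes with an unadjusted p under 0.05 between sham and BDL were also left out. Their leading genes were found over the cells of all libraries together. Subcluster 2 held 252 and 128 sham cells and 664 and 1547 BDL cells. Nos2, one of its leading genes, was 8.74 and 4.64 CPM in all sham BEC-like cells and 346 and 383 CPM in BDL. Whether the sham cells of a subcluster carried its leading genes was not tested. In subcluster 2, led by Nos2 and Ccl20, Il1rn was 71.5 and 63.6 CPM in sham and 920 and 1110 CPM in the BDL libraries. Subcluster 1, led by the YAP targets Ankrd1, Ccn1 and Ccn2, held 62.0, 40.6, 778 and 1000 CPM in the same order. Subcluster 4, led by Dmbt1 and Anxa1, held 69.7, 70.8, 834 and 1020 CPM. These 3 subclusters had the highest Il1rn levels of the 5 in every library. Subcluster 5, led by Dnah12 and Mmp25, lay lower in every library at 18.2, 17.3, 315 and 417 CPM. Subcluster 3, led by the immediate early genes Fos and Jun, was the lowest at 7.50, 13.8, 145 and 168 CPM. Subcluster 6 held 338 of its 381 cells in sham replicate 2, where Il1rn was 19.1 CPM, and was not compared.

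**Figure D2:**
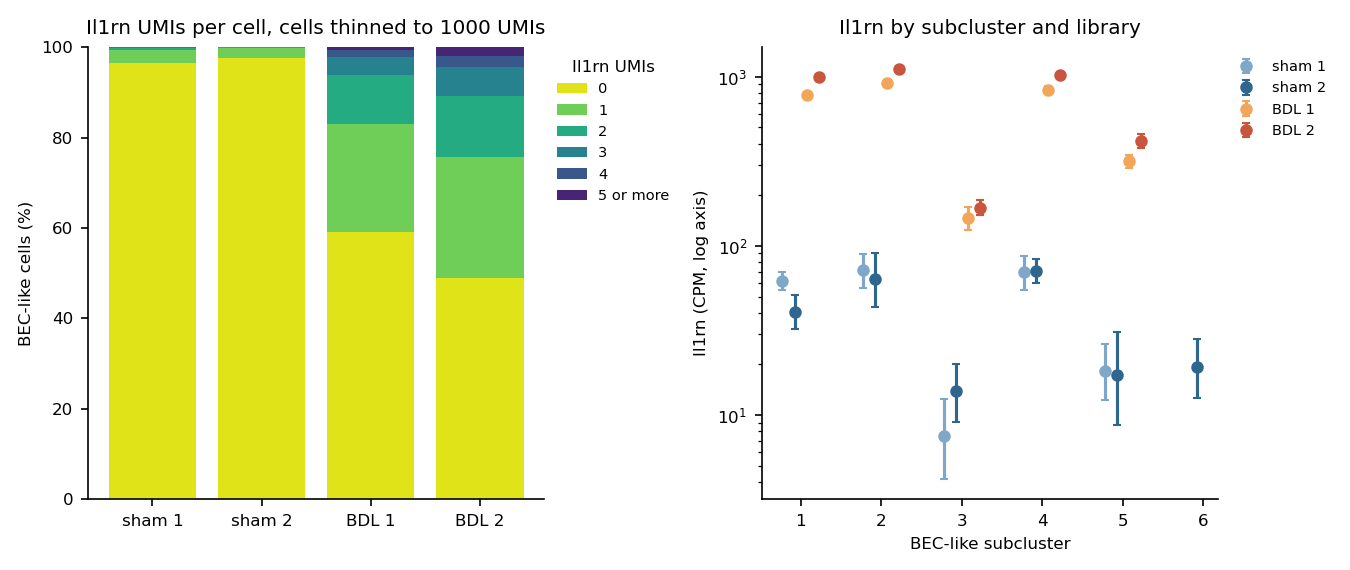
Left, percent of BEC-like cells with 0, 1, 2, 3, 4 or at least 5 Il1rn UMIs in each library after thinning to 1000 UMIs per cell. Right, Il1rn level in CPM on a log axis in each BEC-like subcluster and library with exact 95% Poisson intervals; units of under 30 cells are left out, and in subclusters 1 to 5 the BDL points lie above the sham points.

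Most of the Il1rn of each library lay in BEC-like cells: 96.9% and 95.2% of the Il1rn UMIs in sham and 99.6% and 98.6% in BDL. Mesenchymal-like cells held 5.54, 7.81, 5.84 and 95.8 CPM, and 65 of the 106 UMIs behind the last value came from 1 cell, without which it was 38.3 CPM. The summed BEC markers stood at 4.52%, 13.8%, 4.49% and 10% of their BEC-like level in the same cells, and Il1rn at 12.3%, 20.5%, 0.800% and 9.83% of its own. Hepatocyte-like cells held 0, 7.94, 249 and 218 CPM of Il1rn, where the BEC markers stood at 8.34%, 22.4%, 109% and 87.9% of the BEC-like level. The part of RNA from BECs in these values was not tested.

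In macrophage-like cells, the class in which Il1rn is best known, the gene held 171, 58.2, 266 and 932 CPM from 9, 2, 21 and 283 UMIs. These are 12, 15, 18 and 50 cells, and the class had no test. The level in BDL replicate 2 was 95.6% of that in BEC-like cells of the same library, and the summed BEC markers there were at 87.9% of their BEC-like level. In the other libraries the BEC markers stood at 48.5%, 39.5% and 52.1%. Of the 10 macrophage markers, 3, 5, 7 and 10 had a UMI in the class, with summed levels of 228, 611, 1840 and 817 CPM, and markers of other immune cells were present: neutrophil markers at 304, 524, 63.4 and 16.5 CPM, B cell markers at 95.1, 407, 12.7 and 16.5 CPM and plasma cell markers at 152, 29.1, 139 and 1860 CPM. At clustering resolution 2, 6, 4, 6 and 29 of the cells were classed as BEC-like. The 6, 11, 12 and 21 cells that stayed held 352, 79.1, 89 and 258 CPM of Il1rn, from 9, 2, 4 and 16 UMIs, so sham and BDL then overlapped and most of the 283 UMIs of BDL replicate 2 had left the class. The part of BECs and of other immune cells in the Il1rn of this class was not tested further.

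Il1a, the IL-1 ligand that needs no inflammasome to act, was scarce in BEC-like cells and differed in the same direction as Il1rn. Its level was 0.514, 0.476, 2.33 and 7.90 CPM, from 5, 4, 34 and 252 UMIs. The sham libraries were almost equal, both BDL libraries lay above them, and BDL replicate 2 lay well above BDL replicate 1. The group means of 0.495 ± 0.0271 and 5.11 ± 3.94 CPM (SD, n = 2) differed 10.3-fold, and the fitted log2 difference was 3.41 (SE 0.73). Without BDL replicate 2 it was 2.24, and from sham replicate 1 and BDL replicate 1 alone 2.18. Few cells carried it: 29 of 1964 BEC-like cells in BDL replicate 1 and 132 of 3801 in BDL replicate 2 had an Il1a UMI, and 1 cell of the latter held 27. In BDL replicate 2, 147 of the 252 UMIs lay in subcluster 4, led by Dmbt1 and Anxa1, at 28.5 CPM, whereas the same subcluster of BDL replicate 1 held 2.79 CPM. Subcluster 3 had no Il1a UMI in any library.

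Endothelial-like cells held 48.0, 145, 155 and 76.3 CPM of Il1a, from 3, 21, 9 and 10 UMIs, and sham and BDL overlapped there. Macrophage-like cells held 76.1, 0, 38.0 and 39.5 CPM, or 157, 0, 66.8 and 145 CPM at clustering resolution 2, from at most 12 UMIs a library, so no order of these classes is read from the values. Because BEC-like cells are far more numerous in these libraries, they still held 41.7% and 15.4% of all Il1a UMIs in sham and 73.9% and 92.0% in BDL.

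Il1b, the ligand of activated myeloid cells, was at or near 0 in BEC-like cells and was found mainly in macrophage-like cells. BEC-like cells had 1, 0, 0 and 7 Il1b UMIs, or 0.103, 0, 0 and 0.219 CPM, each in a different cell. The upper limits of the exact 95% Poisson intervals were 0.573, 0.439, 0.253 and 0.452 CPM. Macrophage-like cells held 171, 145, 355 and 155 CPM from 9, 5, 28 and 47 UMIs, which were 90.0%, 100%, 100% and 87.0% of all Il1b UMIs of the libraries. Whether sham and BDL overlapped there depended on single cells and on the clustering. With all cells they overlapped; without the cell with most Il1b UMIs in each library the levels were 20.6, 59.8, 151 and 118 CPM, and at clustering resolution 2 they were 352, 198, 623 and 758 CPM, and in both of these the BDL libraries lay above the sham libraries. That cell held 8 of 9, 3 of 5, 17 of 28 and 12 of 47 UMIs, and no direction is read from so few. Mesenchymal-like, endothelial-like and hepatocyte-like cells had no Il1b UMI in any of the 4 libraries. Il1b was left out of the genes used for clustering, as were the other 7.

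The antagonist was set against its 2 competing ligands as CPM per kilobase of annotated exon, joined over all transcripts of a gene. This scaling assumes that UMI counts grow with that length, which was not tested. In BEC-like cells Il1rn stood at 8.14 and 6.88 CPM per kilobase in sham and 132 and 176 in BDL, while Il1a stood at 0.260, 0.241, 1.18 and 4.0. The antagonist was thus 25.9, 28.5, 112 and 42.8 times the sum of Il1a and Il1b per kilobase in sham replicates 1 and 2 and BDL replicates 1 and 2. In macrophage-like cells the same ratio was 0.241, 0.138, 0.234 and 1.66, and at clustering resolution 2 it was 0.241, 0.138, 0.0446 and 0.099. The ratio lay above 1 in BEC-like cells of every library and under 1 in macrophage-like cells of 3 libraries (of all 4 at resolution 2), and the ratios rest on 6, 4, 34 and 259 ligand UMIs in the former and 13, 5, 31 and 59 in the latter.

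Il18, made by many epithelia as a precursor, was the member that was lower after ligation. Its level was 11 and 10.5 CPM in sham, against 5.55 and 5.77 CPM in BDL, and the groups did not overlap. The means of 10.7 ± 0.378 and 5.66 ± 0.156 CPM (SD, n = 2) differed 1.89-fold, with a log2 difference of -0.90 (SE 0.19), and of -0.99 from sham replicate 1 and BDL replicate 1 alone. Within subclusters the counts were low, from 3 to 75 UMIs a library. The point values of both BDL libraries were below those of both sham libraries in subclusters 1 to 5, but the counting intervals overlapped widely: in subcluster 2 sham replicate 2 held 6.15 CPM (1.27 to 18, 3 UMIs) against 5.67 CPM in both BDL libraries, and in subcluster 3 it held 12.3 CPM (7.87 to 18.3) against 11 CPM (5.85 to 18.8) in BDL replicate 1. The share of cells with an Il18 UMI was 3.83%, 3.32%, 3.87% and 4.55% as sampled and 1.07%, 1.25%, 0.356% and 0.5% after thinning, so the order of the groups in this share turned with depth. BEC-like cells held 88.9% to 98.2% of the Il18 UMIs of each library and were 81.4% to 94.3% of its cells. Mesenchymal-like cells held 2.77, 7.03, 0 and 1.81 CPM, and endothelial-like cells 0, 13.8, 0 and 7.63 CPM. Macrophage-like cells held 0, 0, 12.7 and 3.29 CPM, and hepatocyte-like cells 0, 0, 0 and 24.7 CPM. These levels rest on at most 9 UMIs each, so no order of the classes is read from them. Bco2 and Tex12 overlap Il18 on the opposite strand, and Gm14023 overlaps Il1a; they had 75, 12 and 53 UMIs over all libraries, and whether counting used strand was not given in the sources used here.

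Il33, an alarm signal kept in the nucleus, was shared between BEC-like and mesenchymal-like cells. In BEC-like cells it stood at 2.67, 4.88, 5.20 and 5.23 CPM, a log2 difference of 0.49 (SE 0.36). The BDL values lay just above sham replicate 2, so the difference rests on which sham library is used: leaving out sham replicate 1 gave 0.05, and leaving out sham replicate 2 gave 1.08. In mesenchymal-like cells the level was higher, at 36.0, 112, 93.5 and 124 CPM, and sham and BDL overlapped. A single cell held 63 of the 144 UMIs of sham replicate 2, without which its level was 64.3 CPM. The fitted log2 difference was 0.45 (SE 0.44), but -0.12 without sham replicate 1 and 1.38 from the replicate 1 libraries alone. Mesenchymal-like cells held 49.1%, 75.8%, 37.8% and 43.8% of the Il33 UMIs although they were 6.57%, 13.1%, 3.41% and 3.25% of the cells.

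Il1r1, the signalling receptor for IL-1α, IL-1β and the antagonist, was higher after ligation in BEC-like cells. It stood at 38.5, 47.9, 101 and 97.2 CPM, with both BDL libraries above both sham libraries and close to each other. The means of 43.2 ± 6.70 and 99.3 ± 2.90 CPM (SD, n = 2) differed 2.30-fold, the fitted log2 difference was 1.22 (SE 0.17), and the replicate 1 libraries alone gave 1.40. The share of BEC-like cells with an Il1r1 UMI was 10.8%, 11.2%, 43.0% and 42.7%, and 3.36%, 4.19%, 9.62% and 9.13% after thinning. Both BDL libraries exceeded both sham libraries in subclusters 1 to 5, by the least in subcluster 2, where sham replicate 2 held 109 CPM from 53 UMIs and BDL replicate 2 held 110 CPM.

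Mesenchymal-like cells carried more Il1r1 than BEC-like cells in every library, at 457, 315, 699 and 512 CPM. Their BDL libraries also lay above their sham libraries, with a log2 difference of 0.63 (SE 0.27), which was 0.36 to 0.88 with 1 library left out and 0.61 from the replicate 1 libraries alone. Endothelial-like cells held 464, 124, 224 and 702 CPM, a wide spread in which 1 cell of BDL replicate 2 carried 68 of 92 UMIs and 1 cell of sham replicate 1 carried 18 of 29. Without those cells the levels of the same 2 libraries were 196 and 184 CPM. In BEC-like cells lay 51.0% and 48.7% of the Il1r1 UMIs in sham and 79.1% and 81.4% in BDL.

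Il1rap, the accessory chain shared by the IL-1 and IL-33 receptors, had a small difference over all cells that varied between sublibraries. BEC-like cells held 47.8, 41.6, 55.9 and 56.2 CPM, a 1.26-fold difference of the means with a log2 difference of 0.35 (SE 0.11), and the groups did not overlap. In the 8 sublibraries (the portions into which the cells were split before sequencing) fitted alone, it ranged from -0.06 to 1.36. Within subclusters the separation was found only in subcluster 2, at 57.4, 39.0, 69.7 and 68.5 CPM. In subcluster 3 the order was the reverse, at 43.0, 38.4, 37.2 and 27.2 CPM, and in subclusters 1, 4 and 5 the groups overlapped. Subcluster 2 held 252 and 128 of the sham cells and 664 and 1547 of the BDL cells. Mesenchymal-like cells held 69.2, 34.4, 101 and 83.2 CPM (log2 difference 0.83, SE 0.34). This difference was 0.41 to 1.33 with 1 library left out, 0.55 from the replicate 1 libraries alone and 0.35 without cells with an immune marker. Hepatocyte-like cells held 131, 151, 176 and 86.5 CPM, from 1, 19, 12 and 21 UMIs, and 1 cell of BDL replicate 1 held 9 of the 12 (49.7 CPM without it).

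Il1rl1, the IL-33 receptor, had 0, 1, 5 and 3 UMIs in BEC-like cells. Mesenchymal-like cells held 12, 12, 0 and 11 UMIs of it, or 16.6, 9.37, 0 and 9.94 CPM, in 4, 3, 0 and 1 cells. In BDL replicate 2 a single mesenchymal-like cell thus held all 11. No Il1rl1 UMI was seen in endothelial-like, macrophage-like or hepatocyte-like cells of any library, whose small numbers of cells set a coarse limit.

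**Figure D3:**
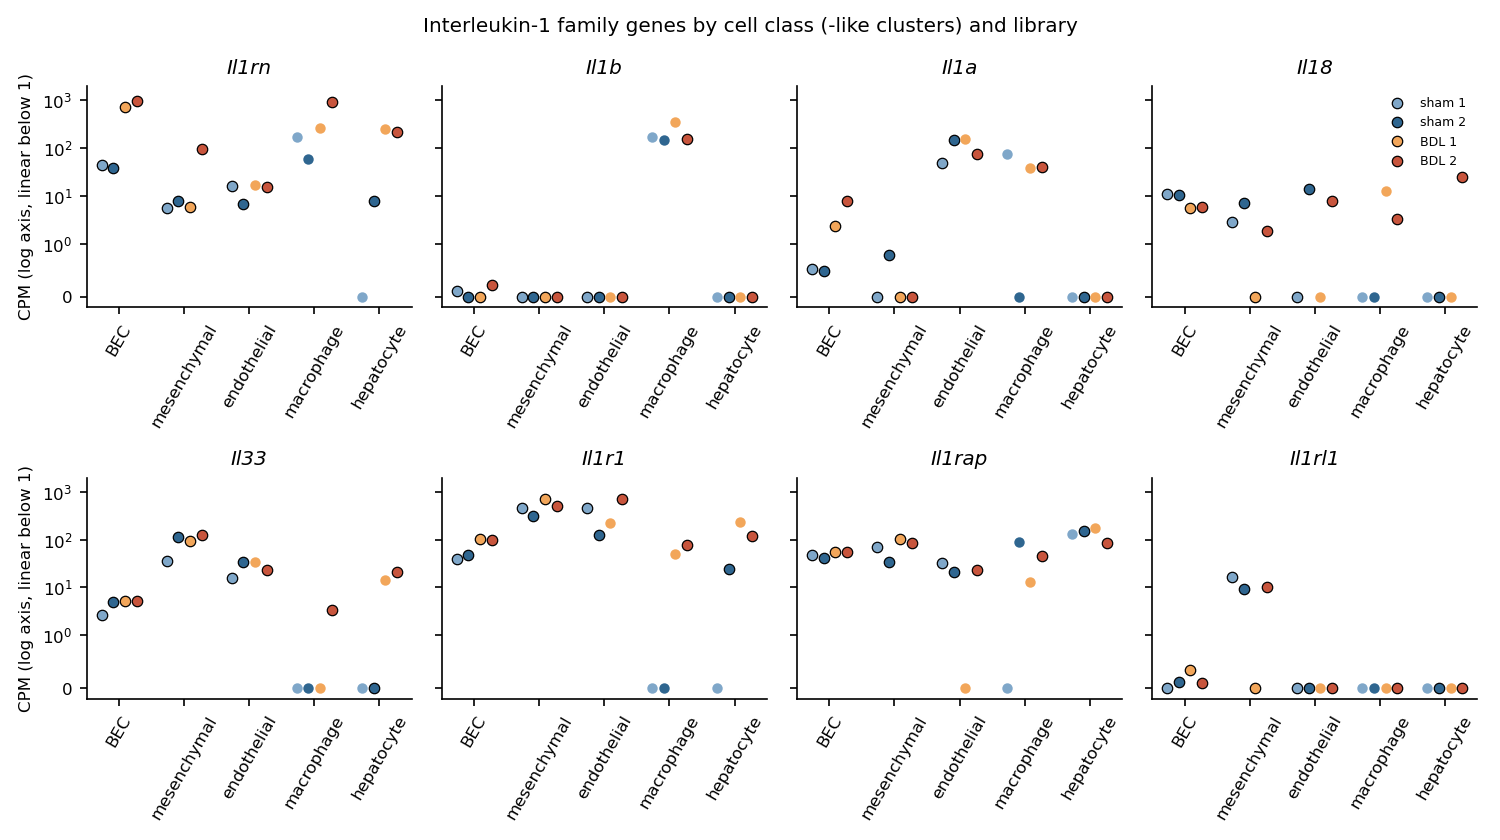
Level of the 8 genes in CPM (log axis, linear below 1) in the 5 cell classes, 1 point for each library; points without a black rim rest on under 30 cells. Il1b sits in macrophage-like cells, Il33 is highest in mesenchymal-like cells, as is Il1rl1 except in BDL replicate 1, Il1r1 is higher in mesenchymal-like than in BEC-like cells, and Il1rn reaches 730 and 974 CPM in BEC-like cells of the BDL libraries.

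In BEC-like cells, 6 of the 8 genes passed the filter on low counts and 2, Il1b and Il1rl1, did not. Both BDL libraries lay above both sham libraries for 5 of the 6 and below for 1, and over all 16036 genes that passed the filter these shares were 31.5% and 35.5%. Nothing is read from this, since the genes were chosen on the same contrast. The order of levels per kilobase in BEC-like cells of sham replicate 1 was Il18 (10.7), Il1rn (8.14), Il1r1 (6.04), Il1rap (4.21), Il33 (0.926), Il1a (0.260), Il1b (0.0539) and Il1rl1 (0). In BDL replicate 1 it was Il1rn (132), Il1r1 (15.9), Il18 (5.38), Il1rap (4.92), Il33 (1.80), Il1a (1.18), Il1rl1 (0.0497) and Il1b (0). On this scale Il18 moved from the first to the third place, but its first place rests on the division by exon length. In CPM, Il18 lay below Il1rap (47.8), Il1rn (45) and Il1r1 (38.5) in sham replicate 1. It lay below the same genes in BDL replicate 1 (55.9, 730 and 101 CPM). Some neighbours in the order per kilobase could not be told apart: Il1rn and Il1r1 overlapped over the sham libraries (8.14 and 6.88 against 6.04 and 7.53), and Il33 and Il1a over the BDL libraries (1.80 and 1.81 against 1.18 and 4.0).

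The genes next to Il1rn on chromosome 2 encode other IL-1 family ligands. Il36a, an epithelial IL-1 family agonist, had 0 UMIs in both sham libraries and 7.05 and 6.71 CPM in the BDL libraries, while Il36g and Il1f10, of the same cluster, had at most 0.125 CPM. Psd4, the neighbour on the other side of Il1rn, held 12.6, 13.7, 11.5 and 10.4 CPM. The receptor genes Il1r2, Il1r1, Il1rl2, Il1rl1, Il18r1 and Il18rap are adjacent on chromosome 1, and of these only Il1r1 exceeded 10 CPM in BEC-like cells of any library. Names and order were taken from RefSeq on GRCm38.p6.

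The genes whose pattern was most like that of Il1rn, over 31 units of a library and a class or BEC-like subcluster and 6747 genes, were Ahr (Pearson r = 0.969), Basp1 (0.929), Gm5486 (0.928), Smox (0.926) and Itga2 (0.925). Ahr encodes the aryl hydrocarbon receptor, Smox spermine oxidase and Itga2 a collagen-binding integrin chain. For Il1r1 they were Lrrc58 (0.902), Gem (0.900), Dpysl3 (0.899), Pakap (0.896) and Nid1 (0.896). For Il1rap they were Slc41a2 (0.761), Slc7a2 (0.733), Ptar1 (0.727), Serp1 (0.723) and Mgat2 (0.706). These correlations of log2(CPM + 10) describe units that share libraries and depth.

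The other genes of the pathway were tested in BEC-like cells with the quasi-likelihood test of edgeR, and p was adjusted over all genes by the Benjamini-Hochberg method. Of the 59 genes, 48 were tested, and 23 rose and 3 fell after ligation at an adjusted p under 0.05. Over all 16036 genes tested, 14.2% rose and 13.0% fell. The median log2 difference was 0.49 over the 48 genes and -0.03 over all genes. The groups did not overlap in any of the 26, so the 2 libraries whose names match in both sources necessarily give the same directions. Without sham replicate 1, 12 pathway genes were called and 1157 genes in all, and without sham replicate 2, 17 and 1667, against 26 and 4360 with all libraries.

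Most of the calls were in the list of transcripts that IL-1 is known to induce through NF-κB. This list was written with earlier results known, and Nos2 and Ccl20 lead a cluster that is almost wholly of BDL cells, so its share cannot be read as independent of the choice. Of its 20 genes 18 were tested, and 14 rose, none fell and 4 did not pass the test, with a median log2 difference of 1.76. Nos2, which makes nitric oxide, stood at 8.74, 4.64, 346 and 383 CPM, with a log2 difference of 5.78 (SE 0.23, edgeR adjusted p = 0.000169). Ccl2, a monocyte attractant, stood at 18.9, 11.9, 522 and 439 CPM, with a log2 difference of 4.99 (SE 0.21, edgeR adjusted p = 0.000169). Lcn2, an iron-binding defence protein, stood at 141, 96.8, 680 and 677 CPM, with a log2 difference of 2.54 (SE 0.16, edgeR adjusted p = 0.000364). In each of these the sham libraries lay far below both BDL libraries. Csf2 had 2 sham UMIs against 348 in BDL, a ratio of 67.8 with a counting interval of 18.6 to 562 (95%). Both sham UMIs were in sham replicate 1, and the fitted log2 difference was 5.21 to 10.04 with 1 library left out, so its size is poorly known. Bcl3, Icam1 and the NF-κB inhibitor genes Nfkbia and Nfkbiz did not pass, the last 2 at 902, 893, 906 and 822 CPM and at 934, 952, 1090 and 1050 CPM. Il6 and Saa3 were too scarce to test, with 0, 2, 1 and 3 and with 1, 0, 0 and 1 UMIs. The same transcripts are also induced by other signals, such as tumour necrosis factor, and their counts do not single out IL-1.

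Among the other ligands, receptors and decoys of the family, 8 of 13 genes were tested, and 3 rose and 1 fell. The shares over all 16036 genes tested were 14.2% and 13.0%, and 8 genes are too few to set against them. Il36a, with 0 sham UMIs and 317 BDL UMIs, was at least 41.3-fold higher, taking 3 counts over both sham libraries as the floor (edgeR adjusted p = 0.000902). Il18rap, the accessory chain of the IL-18 receptor, had 0, 0, 41 and 125 UMIs and was at least 21.6-fold higher (edgeR adjusted p = 0.00303). Both calls held when any 1 library was left out. Il18bp, the soluble decoy of IL-18, stood at 19.5, 21.3, 26.6 and 35.4 CPM (edgeR adjusted p = 0.0494). Sigirr, an inhibitory receptor of the family, fell from 13.5 and 11.4 CPM to 8.22 and 7.99 CPM (edgeR adjusted p = 0.0467). The calls of Il18bp and Sigirr were lost without either sham library, at adjusted p = 0.272 and 0.219 without sham replicate 1 and 0.113 and 0.175 without sham replicate 2. Without BDL replicate 1 the adjusted p of Sigirr was 0.0543, and without BDL replicate 2 those of Il18bp and Sigirr were 0.137 and 0.101. Of the 8 settings that keep all libraries, 3 lost the call of Il18bp (adjusted p = 0.0567 to 0.0691) and 5 that of Sigirr (0.0507 to 0.193). Il18r1, the other chain of the IL-18 receptor, stood at 2.16, 5.59, 3.56 and 7.02 CPM and did not pass. Il1r2, the decoy receptor for IL-1, stood at 0.720, 0.357, 1.92 and 0.846 CPM and did not pass either.

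Of the 12 genes of maturation and release, 8 were tested, and 3 rose and 1 fell. Beside the 14.2% and 13.0% over all 16036 genes tested, this count is too small to be read. Casp4, the caspase that senses bacterial lipid in the cytosol, rose from 135 and 125 CPM to 270 and 216 CPM (log2 difference 0.92, SE 0.14, edgeR adjusted p = 0.00491). Casp8 rose from 56.2 and 66.0 CPM to 105 and 119 CPM, and Gsdmd, which forms membrane pores once cut, from 2.88 and 2.62 CPM to 6.57 and 10.4 CPM (edgeR adjusted p = 0.00827 and 0.0104). Gsdme fell from 26.1 and 18.9 CPM to 13.9 and 8.18 CPM (edgeR adjusted p = 0.0341). These 4 calls were lost without sham replicate 1, at adjusted p = 0.0602, 0.0743, 0.093 and 0.212, and those of Gsdmd and Gsdme also without sham replicate 2, at 0.0585 and 0.08. Casp1, the caspase that cuts IL-1β and IL-18 precursors, and Nlrp3 were too scarce to test, at no more than 0.952 and 0.342 CPM in any library.

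Of the 14 receptor-proximal adaptors, kinases and brakes, all were tested, and 3 rose and 1 fell. Over all 16036 genes tested 14.2% rose and 13.0% fell, and nothing is read from so small a count. Irak2 rose from 70.0 and 54.8 CPM to 95 and 120 CPM (log2 difference 0.82, SE 0.15, edgeR adjusted p = 0.0104). Irak3, a brake on the pathway, rose from 11.4 and 10.7 CPM to 17.3 and 20.4 CPM, and the ubiquitin ligase Traf6 from 30.7 and 28.7 CPM to 42.0 and 38.2 CPM (edgeR adjusted p = 0.017 and 0.0392). Peli1, another ubiquitin ligase of the pathway, fell from 231 and 202 CPM to 144 and 124 CPM (edgeR adjusted p = 0.00887). All 4 lost the call without either sham library, with adjusted p of 0.0687, 0.123, 0.208 and 0.0795 without sham replicate 1 and 0.0827, 0.0914, 0.162 and 0.0513 without sham replicate 2. Traf6 also lost it without BDL replicate 1 (adjusted p = 0.0586) and in 3 of the 8 settings that keep all libraries (0.0538 to 0.081). Myd88, the common adaptor, stood at 16.5, 21.8, 21.6 and 16.5 CPM and did not pass.

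In mesenchymal-like cells, which held more Il1r1 than BEC-like cells, 34 of the 59 pathway genes were tested by the same test, and 1 rose and 1 fell. Over all 8743 genes tested there, 2.52% rose and 3.9% fell. Lcn2 stood at 0, 4.69, 15.6 and 59.7 CPM from 0, 6, 8 and 66 UMIs (log2 difference 3.68, SE 0.83, edgeR adjusted p = 0.0309). The size of this difference was 3.01 without sham replicate 1, 8.002 without sham replicate 2 and 4.23 without BDL replicate 1. Most of its BDL UMIs were in BDL replicate 2, and without that library, after thinning or without cells with an immune marker Lcn2 did not pass the filter on low counts and had no test. BEC-like cells of the same libraries held 141, 96.8, 680 and 677 CPM of Lcn2, and BEC markers stood at 4.52%, 13.8%, 4.49% and 10% of their BEC-like level in mesenchymal-like cells; the part of RNA from BECs was not tested. Icam1, an adhesion molecule, fell from 868 and 1020 CPM to 411 and 288 CPM (log2 difference -1.48, SE 0.27, edgeR adjusted p = 0.0155). DESeq2 did not call Lcn2 (adjusted p = 0.312). Without sham replicate 1 neither edgeR call was kept (adjusted p = 0.122 and 0.0553) and no pathway gene was called. Without sham replicate 2 there were 4 called and without BDL replicate 1 there were 8. Of the mesenchymal-like cells, 317 of the 417 in sham replicate 2 and 108 of the 188 in sham replicate 1 lay in a cluster led by Colec10 and Fcna, and 43 of 71 and 108 of 132 in the BDL libraries in a cluster led by Fbn2 and Col1a1.

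**Figure D4:**
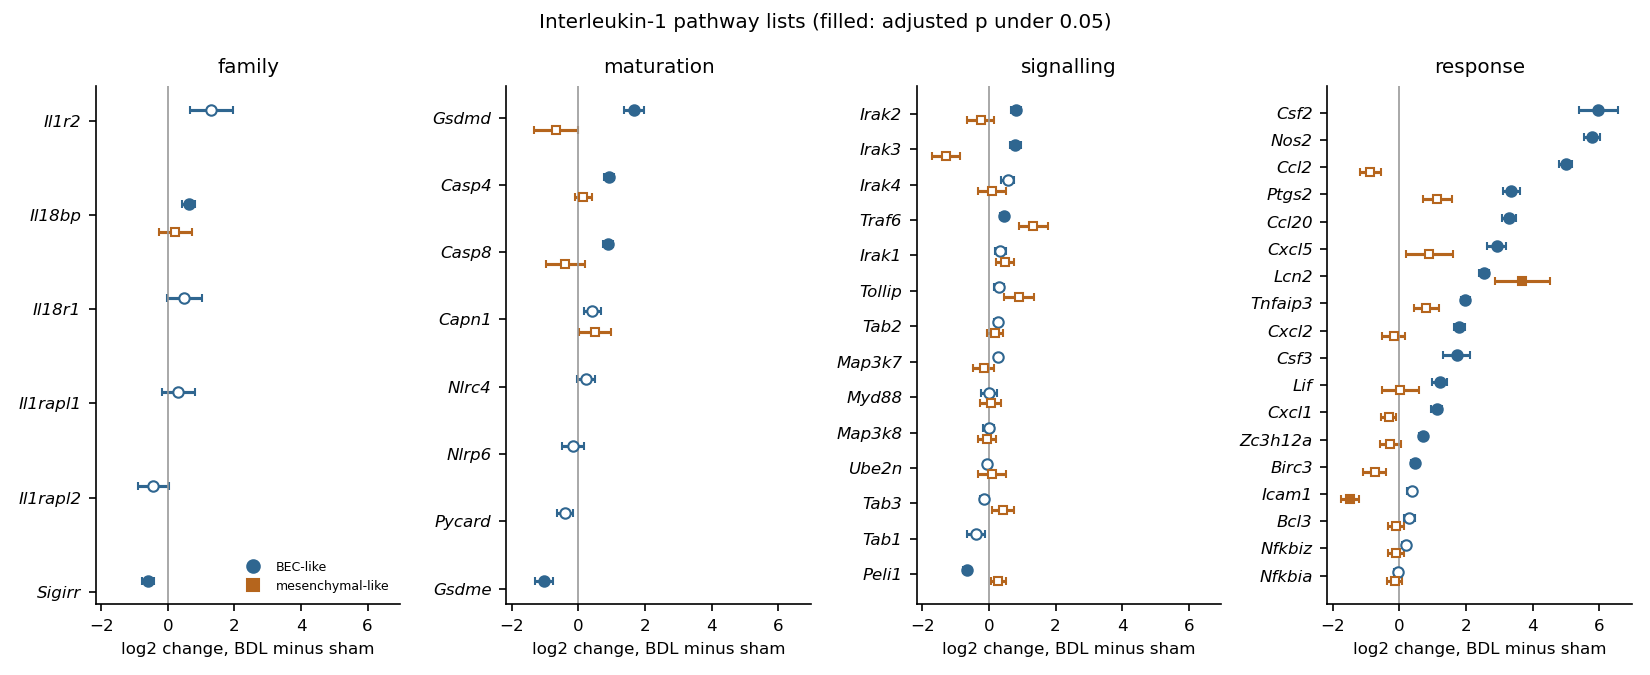
Log2 difference, BDL minus sham, with its standard error, for the tested genes of the 4 pathway lists in BEC-like cells (circles) and mesenchymal-like cells (squares); filled symbols had an adjusted p under 0.05. Il36a and Il18rap, with 0 sham UMIs, are not drawn. In the response list 14 of 18 circles are filled, all to the right of 0, while 1 square is filled on each side.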

How the data were processed

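Single cells from mouse liver were measured in 2 sham and 2 BDL libraries. Fixed cells were barcoded by split-pool rounds (Evercode) and transcripts primed with random hexamers and oligo(dT), per the labels' protocols. The authors deposited UMI counts per gene and cell, not normalized, on a gene table named mm39refseq per the file headers, and GRCm39 is the build in the submitters' processing notes; the aligner and its version were not given in the sources used here. The members and lists were chosen with earlier results of these data known.

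Of 12211 deposited cells, 7 under 500 UMIs, 10 over 20% mitochondrial UMIs and 11 called doublets (0.0902%, too few for the caller to be taken as having worked) were removed, leaving 12183. Cells were clustered with scanpy 1.11.5, scikit-learn 1.9.0, leidenalg 0.10.2 and scipy 1.17.1 under Python 3.11.15, on 2000 variable genes without the 8 members, 30 components, 20 neighbours and Leiden resolution 1. A cluster was named from at least 3 detected markers, and BEC-like from at least 6 of 11, a limit set after seeing the data. Subclusters of BEC-like cells were made in the same way, at resolution 0.5. UMIs were summed per library and class and tested across libraries with edgeR 4.0.16 (R 4.3.3; TMM scaling, filterByExpr, quasi-likelihood, two-sided, Benjamini-Hochberg over all genes tested, threshold 0.05), with DESeq2 1.42.0 as an alternative. The fit was tested on simulated data. Classes with under 30 cells in a library had no test.

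Named genes are the 8 members and, from each list, up to 3 genes in each direction with the smallest adjusted p in BEC-like cells and up to 2 in mesenchymal-like cells; other genes were named after their values were seen. Intervals (95%, exact Poisson for levels, Clopper-Pearson for shares) and floors (3 counts) cover counting error only. Likeness used genes of at least 20 CPM on average and units of at least 30 cells. Exon lengths came from GENCODE M21. Alternatives were the scaling, the filter on low counts, the clustering, doublets, cells with immune markers, depth, sublibraries and each library left out; 3 more, the replicate 1 libraries alone, each class without its cell with most UMIs, and macrophage-like cells at resolution 2, were chosen after seeing the data.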

Additional observations from a re-analysis of the deposited data

Results flagged for a closer look

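For 5 pathway genes the order of the groups was opposite in the 2 classes: both BDL libraries were above both sham libraries in one class and below them in the other. These are 5 of the 32 pathway genes tested in both classes (15.6%), and over all 8417 genes tested in both the share was 11.3%. Nothing is read from this count, and the difference between the classes was not tested. Most mesenchymal-like cells of the sham libraries lay in a cluster led by Colec10 and Fcna. Most of those of the BDL libraries lay in one led by Fbn2 and Col1a1. The difference given is the log2 difference in BEC-like cells minus that in mesenchymal-like cells. It was 5.87 for Ccl2 (4.99 against -0.88), with mesenchymal-like levels of 307, 178, 95.4 and 166 CPM in sham replicates 1 and 2 and BDL replicates 1 and 2. Irak3 gave 2.07 (0.79 against -1.28), with 87.2, 37.5, 21.4 and 28.0 CPM in mesenchymal-like cells. For Icam1 it was 1.85 (0.37 against -1.48). Cxcl1 gave 1.44 (1.12 against -0.32), with 381, 353, 273 and 327 CPM in mesenchymal-like cells. Peli1 gave -0.95 (-0.67 against 0.29), with 197, 150, 206 and 223 CPM there. Of the 5, edgeR called Ccl2, Irak3, Cxcl1 and Peli1 in BEC-like cells and Icam1 in mesenchymal-like cells at an adjusted p under 0.05.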

How the results depend on the processing

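The log2 difference of Il1rn in BEC-like cells (4.38) ranged from 4.17 to 4.6 when 1 library was left out, was 4.02 from the replicate 1 libraries alone, and was 3.75, 4.10, 4.75 and 4.04 in sublibraries 1, 3, 4 and 8 alone. Genes called in BEC-like cells numbered 4360 and ranged from 1157 to 5882 with 1 library left out, and pathway genes called (26) from 12 to 28; under the 8 other settings they were 3290 to 5939 and 20 to 31. Without a filter on low counts 62.7% of all calls were higher, against 52.3%, and the median of all genes shifted by 0.131. Of the 26 calls none changed sign, and DESeq2 lost 3: Sigirr, Traf6 and Csf3 (adjusted p = 0.179, 0.081 and 0.0532). In mesenchymal-like cells 561 genes were called, and 367 with DESeq2, 1060 without the filter, 350 after thinning and 157 to 1273 with 1 library left out; the 2 pathway calls became 1 with DESeq2, 5 without the filter, 1 after thinning, 1 without cells with an immune marker and 0 to 8 with 1 library left out. Directions turned for Il1rap in sublibrary 2 alone (-0.055, and up to 1.355 in sublibrary 1), for Il33 in mesenchymal-like cells without sham replicate 1 (-0.115; 1.612 without sham replicate 2), and without thinning for the difference in percent of cells with an Il18 UMI (0.635, against -0.732) or an Il1b UMI (0.0728, against -0.0198). The causes were not tested. No paired analysis was possible because no label numbers the replicates. With 1 library left out, the lone library is assumed to vary like the other group. With 2 libraries a group and 12 to 50 macrophage-like cells a library, small differences and the rarer classes were beyond the depth.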
